A study of Mus musculus with 12 samples.

Results

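Both kidneys of each mouse were sequenced separately, so that kidney 2 could be set against kidney 1 within the same animal. All 12 libraries of the series entered this comparison, 2 from each of 6 male C57BL/6 mice, and a library was placed by the kidney number in its title. The 3 mice named WT 1, WT 2 and WT 3 were wild type, and the 3 named 17-51, 17-53 and 17-56 carried the gamma-HIF2alphaM3 transgene, written HIF2aM3 here, a modified HIF2α that in the published line is driven by the promoter of γ-glutamyl transferase (GGT), a brush border enzyme of the proximal tubule. No mouse was treated, the labels give no ages, and RNA came from a slice of the outer cortex that was purified on columns and made into TruSeq libraries. The labels do not say which side kidney 1 or kidney 2 was, nor which was taken first, and whether the number means the same thing in all 6 animals is not known.

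The kidney cortex is layered. Its outermost part holds glomeruli and the convoluted segments of the proximal tubule (S1 and S2), while straight proximal tubule (S3), thick ascending limb and collecting duct run through the medullary rays and become denser toward the outer stripe of the medulla. A slice that reaches deeper, or that keeps more capsule or blood, therefore holds another mixture of cells. In bulk RNA, fewer cells of a type and less RNA per cell cannot be told apart. The slices carried the RNA of cortex: Kap, an androgen-responsive proximal tubule gene, had a median of 25176 RPKM (reads per kilobase of gene, scaled to depth) over the 12 libraries, Slc34a1, the main apical phosphate transporter gene, 1009 RPKM and Umod, which encodes uromodulin of the thick ascending limb, 631 RPKM. The inner medullary urea transporter gene Slc14a2 was near 0, at a mean of 0.185 CPM (counts scaled to a common depth).

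Few genes differed between the kidneys. Of 18164 genes tested with the animal as a block, 17 passed an adjusted p of 0.05, or 0.0936% (edgeR quasi-likelihood test, Benjamini-Hochberg adjustment, two-sided). Of these, 15 fell in kidney 2, or 0.0826% of the genes tested, and 2 rose, or 0.011%. The genes that fell included Apoc3, Hsd17b2, Slc5a10, Mogat1, Aspg, Cyp2j11, Tmigd1 and Napsa, and those that rose were the β-globin gene Hbb-bt and Heg1. At an unadjusted p under 0.05 there were 1556 genes, or 8.57%, 816 lower (4.49%) and 740 higher (4.07%), and the median log2 fold change of all tested genes was -0.0009. Which genes were called rested on single animals: the count was 4 without WT 1, 77 without WT 2, 8 without WT 3, 6 without 17-51, 6 without 17-53 and 35 without 17-56.

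The level of each gene is given as CPM, a count per unit of sequencing depth scaled by TMM factors. A log2 fold change is kidney 2 over kidney 1, with its standard error (SE) from the fit to 6 animals. Library totals ran from 24032148 to 43499743 counts in 11 libraries. The kidney 2 library of 17-51 had 4161829 counts, so results are also given without that animal. As a check for duplicate libraries, the kidneys of a pair were set against counting error alone, and the chi-square per degree of freedom was 1.77 for 17-51 and 3.29 to 14.2 for the others. This ratio depends on depth, so the shallow pair cannot be ranked against the others by it. Globin genes made up 0.00309% to 0.00923% of counts in kidney 1 and 0.0052% to 0.0154% in kidney 2, and their share was higher in kidney 2 in 6 of 6 animals. These shares were not scaled by TMM factors. In 17-56 they were 0.0050% and 0.0052% with factors of 0.973 and 1.045, and Hbb-bs was lower in its kidney 2 after scaling (-0.09). Transcripts of the mitochondrial genome made up 10.7% to 11.7% and 9.81% to 11.8%, lower in kidney 2 in 4 of 6.

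**Figure D1:**
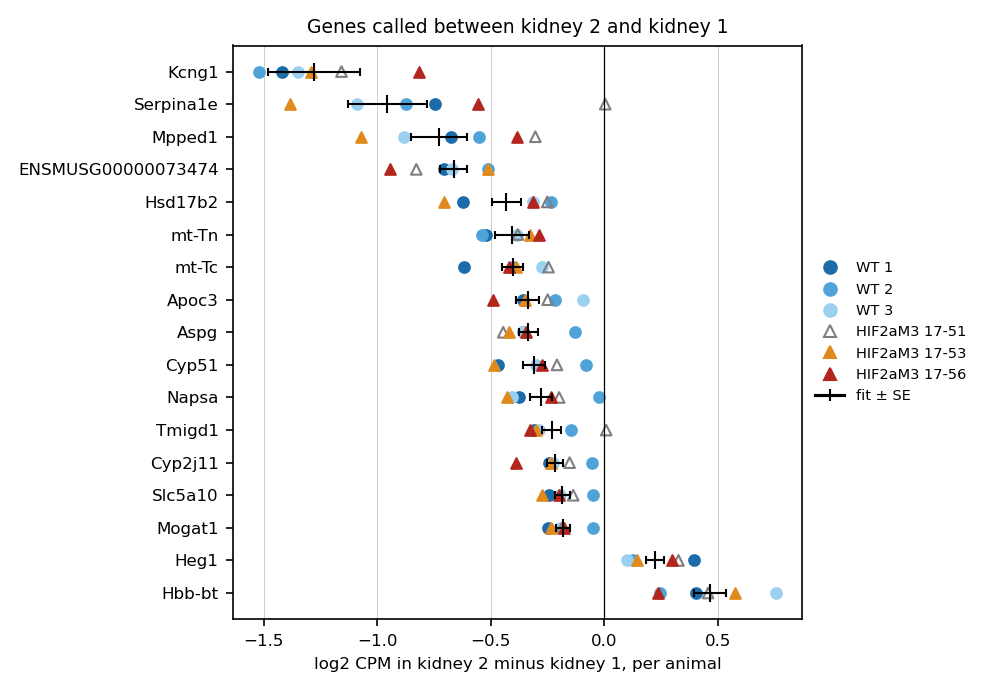
Difference in log2 CPM between kidney 2 and kidney 1 of each animal for the 17 called genes, with the fitted log2 fold change and its SE as a cross. Points left of 0 are lower in kidney 2; circles are WT, triangles HIF2aM3, and the open triangle is 17-51, whose kidney 2 library was shallow. In 15 of the 17 genes all 6 animals lie on one side of 0, the exceptions being Serpina1e and Tmigd1 in 17-51.

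Several of the called genes belong to solute and lipid handling of the proximal tubule. Slc5a10 encodes the sodium-coupled sugar transporter SGLT5, which takes up fructose and mannose in the proximal tubule, and Mogat1 encodes a monoacylglycerol acyltransferase that forms diacylglycerol. Apoc3 encodes apolipoprotein C-III, an inhibitor of lipoprotein lipase made mainly in liver and gut, and Hsd17b2 encodes a dehydrogenase that inactivates sex steroids. Promoter sequence is shown for Slc5a10 and Mogat1, which were lower in kidney 2, and for the globin gene Hbb-bt, which was higher. RefSeq windows from 250 bases before to 50 bases after the start, in build GRCm38.p6, were held for 10 of the 17 called genes, while the counts come from build mm9, so that the coordinates serve the sequence only. Capitals in Slc5a10 (chr11:61720750-61721049, minus strand, the first of its windows) and Mogat1 (chr1:78510810-78511109, plus strand) mark the half-site GTTAAT of HNF1, a factor of proximal tubule and liver, on either strand. Capitals in Hbb-bt (chr7:103813874-103814173, minus strand) mark CCAAT on either strand, 2 matches of which touch each other, and TATAAA.
Slc5a10: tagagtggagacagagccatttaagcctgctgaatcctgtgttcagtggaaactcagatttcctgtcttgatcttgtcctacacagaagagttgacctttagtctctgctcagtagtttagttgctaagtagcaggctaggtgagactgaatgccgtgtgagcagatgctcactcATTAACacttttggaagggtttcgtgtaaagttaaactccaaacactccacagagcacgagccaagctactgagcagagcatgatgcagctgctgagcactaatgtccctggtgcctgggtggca
Mogat1: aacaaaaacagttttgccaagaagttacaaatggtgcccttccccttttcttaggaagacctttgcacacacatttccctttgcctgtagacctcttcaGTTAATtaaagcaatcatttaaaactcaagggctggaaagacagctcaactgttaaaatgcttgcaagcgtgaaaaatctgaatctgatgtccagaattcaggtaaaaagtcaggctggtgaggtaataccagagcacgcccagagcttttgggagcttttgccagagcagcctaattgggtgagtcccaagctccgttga
Hbb-bt: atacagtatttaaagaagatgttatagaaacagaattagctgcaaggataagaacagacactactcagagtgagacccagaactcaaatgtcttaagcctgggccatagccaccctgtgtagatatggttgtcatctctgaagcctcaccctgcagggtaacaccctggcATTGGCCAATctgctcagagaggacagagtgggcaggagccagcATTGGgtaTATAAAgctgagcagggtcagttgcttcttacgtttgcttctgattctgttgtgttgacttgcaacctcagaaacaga
The half-site GTTAAT was found in 7.1% of 32851 RefSeq windows of this length, CCAAT in 37.4% and TATAAA in 13.6%. Among the called genes GTTAAT was also in the window of Serpina1e and in none of the windows of Aspg, Cyp2j11, Cyp51, Heg1, Mpped1 and Tmigd1. The second window of Slc5a10 did not hold it either. CCAAT and TATAAA were marked in Hbb-bt alone. CCAAT or its reverse complement ATTGG also stands, unmarked, in the windows of Mogat1, Cyp51, Heg1 and Serpina1e and in each window of Tmigd1. TATAAA also stands, unmarked, in the second window of Tmigd1. A match is a run of letters and not a measured binding site.

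Slc5a10 ran from 94.96 to 242 CPM in kidney 1 with a median of 145 CPM, and from 82.6 to 204 CPM in kidney 2 with a median of 131 CPM. The ranges of the kidneys overlapped because animals differed by far more than kidneys did, yet kidney 2 was the lower one in 6 of 6 animals. WT 2 had the smallest difference, 163 against 157 CPM, and 17-53 the largest on the log2 scale, 109 against 90.3 CPM. Slc5a10 fell by 0.19 ± 0.03 on the log2 scale, or 12.05% (adjusted p = 0.0352). Its exons overlap Fam83g and Grap on the opposite strand, and since no strand setting is given, reads of such partners cannot be told apart.

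Mogat1 moved much like it. Its level was 74.3 to 109.9 CPM (median 87.7) in kidney 1 and 63.1 to 96.0 CPM (median 79.7) in kidney 2, and it fell by 0.18 ± 0.03 on the log2 scale (adjusted p = 0.0352). WT 2 again lay nearest to 0, at -0.05, and the other 5 animals between -0.25 and -0.18. It overlaps BC035947 on the opposite strand. Slc5a10 and Mogat1 kept their call in 2 of the 6 fits that left out an animal, those without WT 2 and without 17-56.

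Apoc3 separated the genotypes as well as the kidneys. In WT mice it was at 3.82, 2.79 and 4.11 CPM in kidney 1 and 2.97, 2.39 and 3.84 CPM in kidney 2 of WT 1, 2 and 3. In HIF2aM3 mice it was at 67.0, 75.2 and 46.3 CPM in kidney 1 and 56.4, 59.0 and 32.9 CPM in kidney 2 of 17-51, 17-53 and 17-56. Kidney 2 was lower in all 6 animals, at the low level of the WT mice and at the far higher level of the HIF2aM3 mice, and the 2 kidneys overlapped within each genotype. Apoc3 fell by 0.34 ± 0.05 on the log2 scale, or 20.9% (adjusted p = 0.0122). The animals ran from -0.10 in WT 3 to -0.49 in 17-56, and the test of a genotype difference in that fall gave an unadjusted p of 0.206 and an adjusted p of 1.00 in edgeR. Without 17-51 the value was -0.36 with an adjusted p of 0.0512, and without 17-53 it was -0.32 with 0.119.

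Hsd17b2 ran from 11.3 to 21.7 CPM (median 16.6) in kidney 1 and from 9.60 to 18.2 CPM (median 12.1) in kidney 2. The lower value lay in kidney 2 in every animal, with the widest gaps in WT 1, 16.1 against 10.5 CPM, and 17-53, 20.7 against 12.7 CPM. Hsd17b2 fell by 0.43 ± 0.07 on the log2 scale, or 25.8% (adjusted p = 0.0148). Its call was lost without WT 1 (edgeR, adjusted p = 0.103), without 17-51 (0.0512) and without 17-53 (0.0816).

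**Figure D2:**
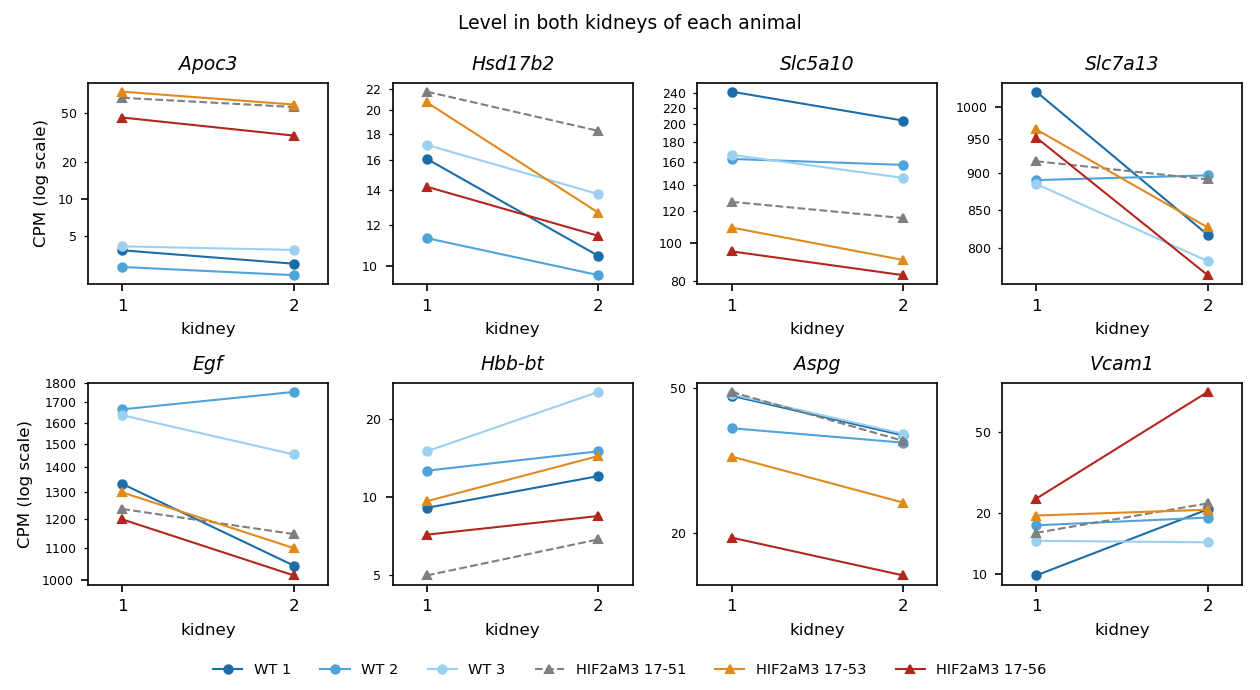
CPM on a log scale in kidney 1 and kidney 2, joined within each animal, for 8 genes; circles are WT, triangles HIF2aM3, and the dashed line is 17-51. Apoc3, Hsd17b2, Slc5a10 and Aspg slope down in all 6 animals and Hbb-bt slopes up in all 6, while Slc7a13 and Egf slope down in all but WT 2 and Vcam1 rises most in 17-56 (23.5 to 78.2 CPM).

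Other called genes of metabolism were lower in kidney 2 too. Aspg, which encodes an asparaginase, was at 19.4 to 48.7 CPM (median 43.1) in kidney 1 and 15.3 to 37.4 CPM (median 35.6) in kidney 2. It fell in 6 of 6 animals by 0.33 ± 0.04 on the log2 scale (adjusted p = 0.00162), and all 6 fits without 1 animal kept that call. Cyp2j11, a cytochrome P450 gene of a family with close copies and so of uncertain value, had kidney ranges that did not overlap, 162 to 179 CPM in kidney 1 and 124 to 161 CPM in kidney 2 (log2 fold change -0.22 ± 0.04, adjusted p = 0.0235). Cyp51, which encodes lanosterol demethylase of cholesterol synthesis, had medians of 119 and 96.1 CPM (-0.31 ± 0.05, adjusted p = 0.0372). Its exons overlap Akap9 on the opposite strand.

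Tmigd1 and Napsa are expressed in proximal tubule cells, the first encoding a cell adhesion protein and the second an aspartic protease. Napsa was at 520.0 to 1035 CPM in kidney 1 and 442 to 859.9 CPM in kidney 2, with a log2 fold change of -0.28 ± 0.05 (adjusted p = 0.0482) and a value near 0 in WT 2 (-0.02). It overlaps Gm15396 on the opposite strand. Tmigd1 was lower in 5 animals by 0.14 to 0.33 on the log2 scale and at 323 and 325 CPM in the kidneys of 17-51 (fit -0.23 ± 0.04, adjusted p = 0.0372). Without 17-51 its value was -0.27 with an adjusted p of 0.0101.

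Among the called genes, the steepest falls were in genes of few reads. Kcng1, a modifier subunit gene of voltage-gated potassium channels, ran from 0.161 to 2.45 CPM in kidney 1 and 0.0342 to 0.983 CPM in kidney 2. It was lower in 6 of 6 animals, by 1.28 ± 0.20 on the log2 scale (adjusted p = 0.0158), with 2 reads in the shallow library. The lowest level of Kcng1, 0.0342 CPM, was in a library of full depth and rests on few reads too. Mpped1, a metallophosphoesterase gene, was at medians of 2.25 and 1.63 CPM (-0.73 ± 0.12, adjusted p = 0.0289). Serpina1e, an α1-antitrypsin gene whose reads can be shared with close copies, was at medians of 1.04 and 0.663 CPM (-0.96 ± 0.17, adjusted p = 0.0372), with no difference in 17-51, which had 3 reads in kidney 2.

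The smallest p-value belonged to a gene with no symbol in the name table, ENSMUSG00000073474. Its levels were 14.3 to 22.9 CPM (median 18.9) in kidney 1 and 7.41 to 16.0 CPM (median 11.8) in kidney 2, lower in each animal. It fell by 0.66 ± 0.06 on the log2 scale, or 36.9% (adjusted p = 1.95e-05), and kept its call in all 6 fits without 1 animal, with values from -0.70 to -0.61. Only mt-Tc and Aspg did so as well. Of the other 14 called genes, Apoc3 kept its call in 4 such fits, Hsd17b2 in 3, 8 genes in 2 and Heg1, mt-Tn, Cyp51 and Napsa in 1.

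Mitochondrial transfer RNA genes supplied 2 of the calls. The gene mt-Tc, for the cysteine tRNA, was at 26.04 to 35.3 CPM in kidney 1 and 19.9 to 27.2 CPM in kidney 2 and fell by 0.40 ± 0.05 on the log2 scale (adjusted p = 0.000518). The gene mt-Tn, for asparagine, had ranges of 5.65 to 7.72 and 4.51 to 5.92 CPM (-0.41 ± 0.07, adjusted p = 0.0372). Both were lower in 6 of 6 animals, with ranges that overlapped only slightly. Reads of mature tRNAs and of longer transcripts that hold their sequence cannot be told apart here. These values are therefore not read as tRNA levels. The family was looked at after these values were seen. Of its 15 tested members of 18 in the table, 14 had a negative log2 fold change and mt-Tt a positive one (0.08), 2 were called and the median was -0.23. Among all tested genes 50.5% were negative and 0.0826% were called lower.

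The longer transcripts of the mitochondrial genome had smaller values, all 9 tested being negative with a median of -0.11 and 0 called, 3 having an unadjusted p under 0.05. The member with the smallest p, mt-Nd6, a complex I subunit gene on the other strand from mt-Nd5, was at medians of 5998 and 5196 CPM (-0.18 ± 0.06, adjusted p = 0.374). Its animals ran from -0.40 in 17-56 to 0.10 in 17-53. The list median was -0.33 in 17-56, -0.25 in WT 1 and 0.09 in 17-53, so these transcripts were not lower in every pair. Another 5 members were near 0 in the table, mt-Atp6, mt-Co2, mt-Co3, mt-Nd3 and mt-Nd4l, at means from 0.00325 to 0.0949 CPM. From the same genome mt-Co1 and mt-Cytb were at means of 15487.5 and 27350 CPM. The way reads were counted is not given, so the values near 0 cannot be read as levels of these transcripts.

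One of the rises was in a globin gene. Hbb-bt encodes a β-globin chain of erythrocytes and was at 4.995 to 15.0 CPM (median 9.35) in kidney 1 and 6.87 to 25.3 CPM (median 13.2) in kidney 2. Kidney 2 was the higher one in all 6 animals, from 7.16 against 8.45 CPM in 17-56 to 15.0 against 25.3 CPM in WT 3. Hbb-bt rose by 0.47 ± 0.07 on the log2 scale, or 38.2% (adjusted p = 0.0122), and without 17-51 its value was 0.47 with an adjusted p of 0.0575. Its near-identical copy Hbb-bs can share its reads, so both values are uncertain. Hbb-bs was more abundant per length (medians of 32.4 against 14.0 RPKM), with medians of 52.0 and 73.3 CPM, and was higher in 5 animals but not in 17-56 (0.45 ± 0.13, adjusted p = 0.458).

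Of the 12 erythrocyte genes listed, 9 were tested, 6 positive and 3 negative with a median of 0.12, and 1 was called. Alas2, the erythroid gene of haem synthesis, had medians of 7.82 and 10.02 CPM (0.36 ± 0.12) and was lower in 17-56 alone. Hba-a1 and Hba-a2, which also define erythrocytes, had means of 0.204 and 0.104 CPM and were not tested. Beside a mean of 64.8 CPM for Hbb-bs, these values may not be their levels. Bpgm, Fech and Slc25a37, which other cells express too, had values of -0.00, -0.02 and -0.04. Among neutrophil and platelet genes 5 of 10 were tested, 4 positive with a median of 0.33 and 0 called, and Csf3r, the receptor gene for granulocyte colony-stimulating factor, was at medians of 0.857 and 1.34 CPM (0.54 ± 0.19, adjusted p = 0.426). The share that residual blood had in other results was not tested.

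Heg1, a receptor gene of endothelial junctions, was at 30.3 to 54.1 CPM in kidney 1 and 38.1 to 67.0 CPM in kidney 2. The ranges overlapped, but Heg1 was higher in kidney 2 in 6 of 6 animals and rose by 0.22 ± 0.04 on the log2 scale (adjusted p = 0.0372). It overlaps Gm15657 on the opposite strand, and its call was kept in 1 of 6 fits without an animal, the one without WT 2. The 15 listed endothelial genes all had positive values, with a median of 0.07 and 0 called at either threshold. The list median came mostly from 1 pair: WT 1 stood at 0.37, WT 3 at -0.13 and the other 4 animals between 0.01 and 0.08, and without WT 1 the median was 0.00. Flt1, a VEGF receptor gene and the member with the smallest p, was at medians of 87.9 and 95.8 CPM (0.17 ± 0.08, adjusted p = 0.644).

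Among the lists for zones of the nephron, the one called gene was Slc5a10, in S2. The lists were compiled with earlier results of these data known, they share members, and their counts are descriptions read against all tested genes, of which 50.5% were negative and 49.5% positive. All 11 genes of S3 and the outer stripe had negative values with a median of -0.17, none was called and all 11 had an unadjusted p under 0.05, against 4.49% of all genes with that p and a lower value. All 12 genes of the thick ascending limb were negative too, with a median of -0.14, 5 at an unadjusted p under 0.05 and 0 called. Of the outer cortex, 10 of 12 genes of S1 and 12 of 14 podocyte genes were positive, with medians of 0.10 each and 0 called. The difference between these lists was not tested.

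**Figure D3:**
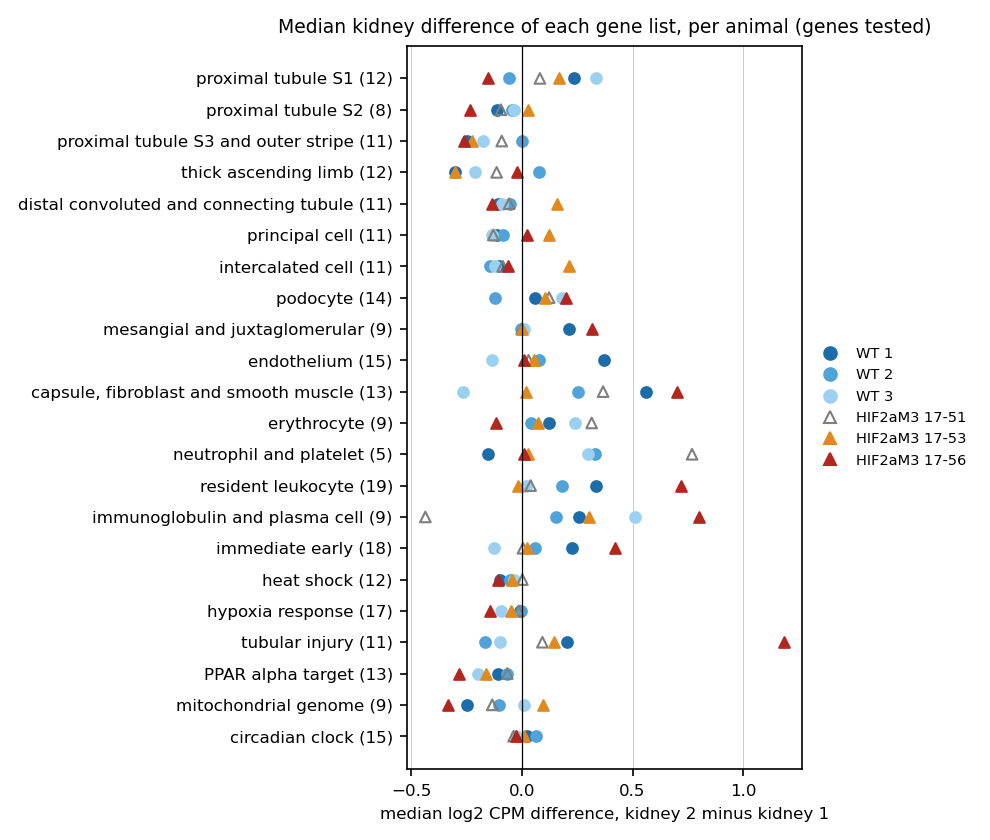
Median log2 CPM difference, kidney 2 minus kidney 1, of the tested members of 22 gene lists in each of 6 animals, with the number of genes tested in parentheses. The S3 list is below 0 in 5 animals and at 0.00 in WT 2, the PPAR alpha list is below 0 in all 6, and 17-56 stands to the right in the injury (1.18), leukocyte (0.72) and capsule (0.70) lists.

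Within the S3 list the size of the difference ran from -1.12 to -0.10. Slc7a13, the cystine and aspartate transporter gene that marks S3 in male mice, was at 885 to 1024 CPM (median 935) in kidney 1 and 766 to 897 CPM (median 822) in kidney 2. WT 2 had 891 and 897 CPM and the other 5 animals were lower in kidney 2 (-0.18 ± 0.04, adjusted p = 0.175). Slc6a18, an amino acid transporter gene with the smallest p of the list, had medians of 577 and 511 CPM (-0.17 ± 0.04, adjusted p = 0.0911), with 516 CPM in both kidneys of WT 2.

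Cyp7b1 and the organic anion transporter genes Slc22a13 and Slc22a7 had the widest differences of the S3 list. Cyp7b1, which encodes an oxysterol hydroxylase, was at 20.3 against 6.596 CPM in WT 1, 42.0 against 19.9 CPM in WT 3, 7.90 against 1.61 CPM in 17-53 and 5.61 against 3.23 CPM in 17-56. In WT 2 (5.39 and 5.50 CPM) and 17-51 (3.29 and 3.32 CPM) the kidneys were alike, and the fit of -1.12 ± 0.31 did not pass (adjusted p = 0.447). Slc22a13 had a value of -1.07 ± 0.33 and Slc22a7 of -0.54 ± 0.12, and both were also widest in 17-53 and smallest or opposite in WT 2 (-2.23 and 0.34, and -0.96 and -0.08). The S3 median was -0.25, 0.00 and -0.18 in WT 1, 2 and 3 and -0.09, -0.22 and -0.26 in 17-51, 17-53 and 17-56.

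Androgen-responsive genes overlap that list. Of 9 tested, 8 were negative with a median of -0.09 and 0 called. Slc22a19, an organic anion transporter gene, was at 8.48 to 21.2 CPM in kidney 1 and 5.01 to 11.4 CPM in kidney 2. It was lower in 6 of 6 animals (-0.82 ± 0.21, adjusted p = 0.409). A response to androgen was not tested. Kap had medians of 17969 and 15949 CPM (-0.15 ± 0.05, adjusted p = 0.374) and was lower in all 6 as well, by 0.01 in WT 2. Among steroid enzyme genes 9 of 11 were negative, with a median of -0.04, and Hsd17b2 was the called one.

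In the thick ascending limb, Egf, which encodes epidermal growth factor, had medians of 1316 and 1123 CPM (-0.17 ± 0.05, adjusted p = 0.2). Slc12a1, the sodium, potassium and chloride cotransporter gene, had medians of 513 and 431 CPM (-0.25 ± 0.12, adjusted p = 0.639), and Umod 1971 and 1527 CPM (-0.21 ± 0.09, adjusted p = 0.59). WT 2 was the higher one in kidney 2 for these 3 genes (0.08, 0.14 and 0.08), and Umod was also at 0.08 in 17-56. The list median was -0.30 in WT 1 and 17-53, -0.21 in WT 3, -0.11 in 17-51, -0.02 in 17-56 and 0.08 in WT 2. Egf overlaps 2 annotated transcripts on the opposite strand.

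In the distal convoluted and connecting tubule 8 of 11 genes were negative with a median of -0.05, and the kinase gene Wnk4 had medians of 186 and 171 CPM (-0.09 ± 0.04, adjusted p = 0.458). All 11 principal cell genes were negative with a median of -0.04, a sign that turned to 0.01 without WT 2. Aqp4, the basolateral water channel gene, had the widest value of that list, at 2.65 against 1.01 CPM in WT 1, 19.8 against 7.31 CPM in 17-53 and 0.805 against 0.957 CPM in WT 2 (-0.91 ± 0.19, adjusted p = 0.195). In mouse kidney this gene is also known from S3. Of 11 intercalated cell genes 10 were negative with a median of -0.04, and Hmx2, a homeobox gene, had -0.12 ± 0.08. None of these genes was called.

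In S2 the picture was mixed: 7 of 8 genes were negative with a median of -0.08, Slc5a10 was called, and Slc34a3, a phosphate transporter gene, stood at 0.18 ± 0.08. In S1 the median was 0.23 in WT 1, 0.33 in WT 3, 0.17 in 17-53, 0.08 in 17-51, -0.06 in WT 2 and -0.16 in 17-56. Slc5a12, a lactate transporter gene, and Slc5a2, which encodes the glucose transporter SGLT2, had values of 0.20 ± 0.12 and 0.13 ± 0.08 and were likewise lower in kidney 2 of WT 2 and 17-56 and higher in the other 4 animals. Slc4a4, the basolateral bicarbonate transporter gene and the member with the smallest p, had 0.07 ± 0.04 (adjusted p = 0.655). Of 6 tested genes of the medulla and of hypertonicity, 5 were negative with a median of -0.03, which was 0.00 in limma on log2(RPKM + 1), and Nfat5, their osmotic transcription factor, had 0.11 ± 0.07.

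In the podocyte list Col4a3 and Col4a4, for collagen IV chains, had the negative values of -0.03 and -0.01. Ptpro, which encodes a phosphatase of podocytes, had 0.17 ± 0.06 (adjusted p = 0.458), with medians of 21.1 and 24.8 CPM. Podxl and Nphs1, for podocalyxin and nephrin, had 0.10 ± 0.04 each. WT 2 again went the other way, with a podocyte median of -0.12, and the other 5 animals had 0.06 to 0.20. Of 9 mesangial and juxtaglomerular genes 7 were positive with a median of 0.11, which was 0.01 without 17-56. Akr1b7, of renin cells, had 0.31 ± 0.13, and Ren1, for renin, 0.22 ± 0.12, with 73.5 against 123 CPM in WT 2. Neither passed.

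Genes of fatty acid breakdown under PPAR alpha, a lipid-sensing receptor of the proximal tubule, had values of one sign. All 13 tested were negative with a median of -0.14, 8 had an unadjusted p under 0.05, 5 were lower in all 6 animals, where 3.31% of all genes were, and 0 were called. Acaa1b, a peroxisomal thiolase gene, had medians of 103 and 89.9 CPM (-0.16 ± 0.04, adjusted p = 0.154). Cyp4a14, a fatty acid hydroxylase gene, ran from 7.20 to 237 CPM in kidney 1 and 4.41 to 223 CPM in kidney 2 and was lower in each animal (-0.42 ± 0.08, adjusted p = 0.195). The list median was negative in all 6 pairs, from -0.07 in WT 2 and 17-51 to -0.29 in 17-56.

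Apolipoprotein genes split. Of 13 tested genes of lipoproteins and triglycerides 10 were negative and 3 positive, with a median of -0.02, 0.00 with library size alone, and Apoc3 and Mogat1 were called. Apoa4, the neighbour of Apoc3 in the genome, was lower in 6 of 6 animals (-0.91 ± 0.17, adjusted p = 0.218). Its differences ran from -1.61 in WT 1 to -0.38 in 17-51. Levels of Apoa4 were 88.3 against 35.6 CPM in 17-53 and 0.563 against 0.342 CPM in WT 2. Apob, the structural apolipoprotein gene of secreted lipoproteins, was higher in 6 of 6, as 1.98% of all genes were, with medians of 328 and 405 CPM (0.38 ± 0.08, adjusted p = 0.228). Apoe was higher in 6 of 6 too (0.26 ± 0.08, adjusted p = 0.451). Gm10680, an antisense gene whose exons overlap Apoa4, had -0.95 ± 0.15 (adjusted p = 0.106), and without strand its reads and those of Apoa4 cannot be told apart.

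The 5 genes whose kidney differences followed those of Apoc3 most closely over the 6 animals were Ifrd2, Rbm39, Gm4450, Ugt3a2 and Calml4, with Pearson r from 0.983 to 0.996. They were taken from 10180 genes of at least 10 CPM over 6 points, and 145 of those had r above 0.9. Their own log2 fold changes were small, from -0.10 for Ugt3a2 to -0.04 for Ifrd2. None was called.

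Of 13 tested genes of capsule, fibroblasts and smooth muscle 12 were positive with a median of 0.21 and 0 called. The list stood at 0.70 in 17-56, 0.56 in WT 1, 0.37 in 17-51, 0.25 in WT 2, 0.02 in 17-53 and -0.27 in WT 3, and its median was 0.06 without 17-56. Lum, the lumican gene, had the smallest p (0.38 ± 0.16, adjusted p = 0.52). Of mesothelial genes only Gpm6a was tested, at -0.15 ± 0.04, and the defining genes Msln and Upk3b were at 0.135 and 0.152 CPM. Of urothelial genes only Trp63 was tested, at -0.08 ± 0.21, a sign that flipped under 3 alternatives, and Upk2, Upk3a and Krt5 were at 0.0131 to 0.0195 CPM.

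Leukocyte genes were positive in 17 of 19 cases, with a median of 0.25, 4 at an unadjusted p under 0.05 and 0 called. Ptprc, the pan-leukocyte marker CD45, had medians of 18.5 and 19.8 CPM (0.22 ± 0.07, adjusted p = 0.329). Itgam, a myeloid integrin gene, was higher in 6 of 6 animals (0.51 ± 0.15, adjusted p = 0.374), by 0.01 in WT 3 and 1.25 in 17-56. Csf1r, the receptor gene of resident macrophages, was negative (-0.08 ± 0.05). The list median was 0.72 in 17-56, 0.34 in WT 1 and between -0.02 and 0.18 in the other 4, and 0.13 without 17-56.

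Immunoglobulin genes varied widely between the kidneys of one animal. All 9 tested were positive with a median of 0.23 and 0 called, but the pairs went both ways. Ighg2c, a heavy chain gene, was at 66.6 against 5.92 CPM in 17-51, 8.47 against 55.2 CPM in 17-53 and 52.1 against 134 CPM in 17-56, while in WT mice the kidneys were at 2.45 and 3.12, 15.7 and 12.4, and 4.01 and 5.79 CPM (0.71 ± 0.71, adjusted p = 0.843). Ighg2b was at 35.9 against 15.4 CPM in 17-51 and higher in kidney 2 in the other 5 animals. Without 17-51 Ighg2b rose by 0.83 on the log2 scale (adjusted p = 0.0209). Jchain, the joining chain gene of plasma cells, had 0.12 ± 0.04 (adjusted p = 0.464).

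No gene of the handling lists was called, though a few had the same sign in all 6 animals. Of 18 immediate early genes 16 were positive with a median of 0.15 and 0 called, with list medians of 0.42 in 17-56, 0.23 in WT 1 and -0.13 to 0.06 in the other 4 animals. Fos was at 12.1 CPM in its kidney 2 against 0.729 CPM in kidney 1, and Egr1 at 34.0 against 7.26 CPM, while the other animals had Egr1 differences from -0.20 to 0.33. Ier3 was the member with the smallest p and was lower in 6 of 6 animals (-0.15 ± 0.04, adjusted p = 0.237). Without 17-56 the list median was 0.04. Heat shock genes were negative in 11 of 12 cases by a median of -0.06, with Hsph1, a chaperone gene, lower in 6 of 6 animals (-0.12 ± 0.03, adjusted p = 0.195). Rbm3, a cold-inducible RNA-binding protein gene, was higher in 6 of 6 (0.12 ± 0.04, adjusted p = 0.434), and Cirbp had 0.01 ± 0.04.

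Hypoxia genes, the known targets of HIF factors, gave a median of -0.04 over 17 genes, 11 negative and 0 called. Egln3, a HIF prolyl hydroxylase gene, was lower in 6 of 6 animals, with 18.9 against 16.0 CPM in WT 1 and 32.9 against 24.7 CPM in 17-56 (-0.23 ± 0.05, adjusted p = 0.103). The 15 clock genes had a median of 0.00, whose sign depended on the setting, and Tef, the member with the smallest p, had -0.08 ± 0.03. The 9 glucocorticoid and metallothionein genes had a median of -0.02, positive in 6 alternatives, with Zbtb16 at 0.22 ± 0.09. None of these was called.

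Tubular injury genes had their highest median difference in 17-56. In that animal the median of 11 tested genes was 1.18, against -0.17 to 0.20 in the other animals, and 0.02 over the fit without it. Havcr1, which encodes the injury marker KIM-1, reached 58.9 CPM in kidney 2 of 17-56 against 8.18 CPM in kidney 1. Lcn2, for lipocalin 2, was at 15.6 against 1.77 CPM, Spp1, for osteopontin, at 1745 against 768 CPM, and Vcam1, an adhesion molecule gene, at 78.2 against 23.5 CPM. Other pairs had high values of single members, Havcr1 being at 1.39 in 17-53 and 1.22 in WT 1 on the log2 scale, Vcam1 at 1.07 in WT 1 and Lcn2 at 0.73 in 17-53. Over 6 animals 0 of the 11 were called, and Gdf15, the member with the smallest p, had 0.26 ± 0.09 (adjusted p = 0.434). The leukocyte, capsule and immediate early lists also had their highest medians in this pair, and their part in the injury values was not tested.

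**Figure D4:**
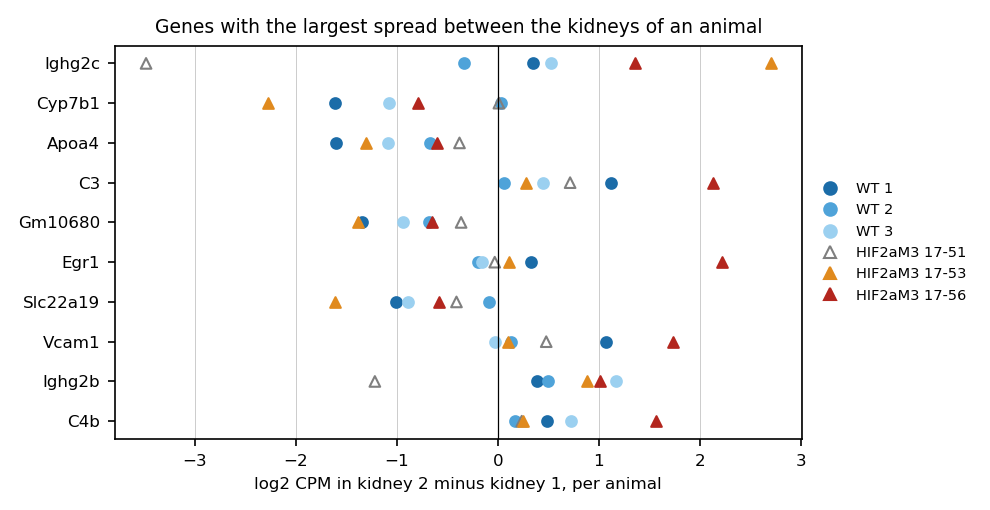
Log2 CPM difference, kidney 2 minus kidney 1, per animal for the 10 genes of at least 10 CPM with the largest spread between kidneys, ordered by that spread over the 5 animals other than 17-51. Cyp7b1, Apoa4, Gm10680 and Slc22a19 lie mostly left of 0, C3, Egr1, Vcam1 and C4b have their largest value in 17-56, and Ighg2c runs from -3.48 in 17-51 to 2.70 in 17-53.

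How far 2 kidneys of a mouse could differ was read from 10181 genes of at least 10 CPM. The median SD of log2 CPM within an animal was 0.0721 over 6 animals and 0.0666 without 17-51. More than 2-fold differences were few: 10 genes in WT 1, 0 in WT 2, 4 in WT 3, 2 in 17-51, 6 in 17-53 and 32 in 17-56. In 17-56 all 32 were higher in kidney 2, among them the complement genes C3 (37.4 to 164 CPM) and C4b (10.3 to 30.7 CPM), the collagen genes Col1a1 (25.95 to 76.5 CPM) and Col3a1 (38.7 to 103 CPM), and Cp, for ceruloplasmin (46.3 to 136 CPM). In 17-53, 5 of 6 were lower, with Scd1, the stearoyl-CoA desaturase gene, at 145.8 against 55.3 CPM, beside Cyp7b1, Slc22a19, Apoa4 and Gm10680. The difference profiles of 2 animals correlated weakly over these genes, with r from -0.09 to 0.32 and a median of 0.12 over 15 pairs of animals, 11 of them positive.

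Lists of neighbouring organs held defining genes near 0 beside others that were well detected. Of 10 adrenal genes listed, 4 were in the table and 2 were tested, and Cyp11a1, of steroid synthesis, was at a mean of 0.0147 CPM. Hsd3b1 and Star had values of -0.25 ± 0.21 and -0.00 ± 0.09. In fat, Adipoq and Plin1 were at 0.206 and 0.103 CPM, and Car3 and Fabp4, at means of 18.1 and 26.5 CPM, had 0.32 ± 0.21 and 0.14 ± 0.12, with Car3 at 5.90 against 14.9 CPM in WT 1. Of liver genes 10 of 15 were tested, 6 negative with a median of -0.12 and 0 called, and Ahsg was at 0.00752 CPM. The liver list was mixed within animals, with medians from -0.08 to 0.28, below 0 in 3 animals and above 0 in 3. The liver members Ttr, Fga, Fgg and Apoh were at 27.8, 23.0, 14.8 and 11.9 CPM. At an unadjusted p under 0.05, Apob and the fibrinogen genes Fgb (0.47 ± 0.15), Fgg (0.33 ± 0.10) and Fga (0.18 ± 0.08) were positive and Serpina1a (-0.75 ± 0.27) negative. In pancreas and muscle lists 2 genes each were tested, Cela2a at 0.15 ± 0.12 and Mylpf at 0.12 ± 0.23 having the smallest p. Cela1 was at 69.5 CPM, and Cpa1 and Myh4 were at 0.00325 and 0.00264 CPM.

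Without 17-51, 6 of 18288 genes were called, or 0.0328%, 5 lower in kidney 2 (0.0273%) and 1 higher (0.00547%). Of the 17, 4 were among them, ENSMUSG00000073474, mt-Tc, Aspg and Tmigd1, and Gm10680 (log2 fold change -1.08, adjusted p = 0.0141) and Ighg2b joined. All 17 genes kept the sign of their value. Adjusted p-values of 0.0512 to 0.0575 were found for Apoc3, Hsd17b2, Kcng1, Hbb-bt and Mpped1, with values of -0.36, -0.45, -1.28, 0.47 and -0.75. The smaller number of pairs is part of this setting's construction.

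The kidney difference was also compared between genotypes. The interaction of kidney and genotype called 0 genes. At p under 0.05 before adjustment there were 534 in edgeR, or 2.94%, and DESeq2 had 0 calls and 116 such genes. Within WT animals 2 genes were called, or 0.011%, with 704 before adjustment, or 3.88%. Within HIF2aM3 animals 3 were called, or 0.0165%, with 1318 before adjustment, or 7.26%. The values of the main genes were -0.21 and -0.37 for Apoc3, -0.39 and -0.48 for Hsd17b2, -0.16 and -0.21 for Slc5a10, -0.16 and -0.20 for Mogat1 and 0.48 and 0.44 for Hbb-bt, WT first. These differences between genotypes did not pass, which does not show that the genotypes were alike.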

How the data were processed

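RNA-seq of kidney cortex was read from 12 libraries, 2 kidneys from each of 6 mice. Raw read counts per Ensembl gene were deposited by the authors, and the submitters' processing notes name mm9 as the build. Aligner, counter, annotation release and strand setting: not given in the sources used here. RPKM values were also deposited by the authors and are never 0; they served for levels between genes and for 1 alternative. The 12 per-sample log2 columns were not used. Of 27412 gene IDs, 24630 had a symbol in the name table and the other 2782 held 1.18% of counts.

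Kidney 2 was tested against kidney 1 on the deposited counts with edgeR 4.0.16 in R 4.3.3 (quasi-likelihood, robust, TMM factors, filterByExpr by kidney, animal as a block), with Benjamini-Hochberg adjustment at 0.05. SE was taken as the absolute log2 fold change divided by the root of F, and log2 CPM used a prior count of 1. The pairing comes from the animal, since both kidneys belong to 1 mouse; the correlation of libraries of an animal was 0.60 in limma-voom. Within-genotype and interaction contrasts used the same samples. Alternatives used limma 3.58.1, DESeq2 1.42.0, other scalings and filters, thinning, and each animal left out; the second filter, the further settings within subsets, and the fit without both 17-51 and 17-56 were chosen after seeing the data. The fit was also run on simulated counts in which all genes had the same spread setting. Real genes need not share it, so that run is no check on the calls reported here.

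Named genes were the 5 markers, every called gene with a symbol, of each list the called members or else the one with the smallest p, the 10 genes with the largest spread between kidneys, genes called only without 17-51, and the 5 genes most like Apoc3. Other genes were named after their values were seen, as was the gene without a symbol. The members and lists were chosen with earlier results of these data known. Each animal is 1 replicate. The p-values set the kidney difference against its spread between 6 animals. In the fit the spread of each gene is drawn toward a trend over all tested genes. The p-values and SE therefore rest on other genes as well as on the 6 pairs.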

Additional observations from a re-analysis of the deposited data

Results flagged for a closer look

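Among 58 named genes and 28 lists, 1 of the 6 animals stood far from the other 5 in the kidney difference (log2 CPM, kidney 2 minus kidney 1) for 6 genes and 5 lists. For unselected and independent items chance gives about 1 in 20 such cases. Here genes were named for their calls, small p-values or wide spread, and lists share members. That rate is therefore no baseline for these counts. WT 2 lay nearest to 0 for Mogat1, at -0.048 against -0.25 to -0.18 in the others, and for Aspg, at -0.13 against -0.45 to -0.34. WT 3 was the one animal with a lower value of Akr1b7, at -0.32 against 0.38 to 0.52. Animal 17-51 stood apart for Ighg2b, at -1.22 against 0.38 to 1.17, and for Mylpf, at -1.06 against -0.14 to 0.40, a muscle gene of few reads.

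Animal 17-53 was the only one with positive list medians for the distal convoluted and connecting tubule, at 0.16 against -0.13 to -0.05, and for intercalated cells, at 0.21 against -0.15 to -0.06. Animal 17-56 stood apart in Egr1, at 2.22 against -0.20 to 0.33, and in the medians of tubular injury genes, at 1.18 against -0.17 to 0.20, of lipoprotein genes, at -0.22 against -0.07 to -0.02, and of steroid enzyme genes, at -0.17 against -0.04 to 0.02.

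For the liver genes the list median was negative in all 3 WT animals, with a mean of -0.06, and positive in all 3 HIF2aM3 animals, with a mean of 0.18. In 17-53 it was only 0.005, and the median of the fitted values over 6 animals was -0.12. The difference of 0.23 between the genotypes was not tested.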

How the results depend on the processing

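The 17 calls of the kidney difference became 0 with no replicate block (188 genes at an unadjusted p under 0.05), 2 with the animal as a random effect, 59 in DESeq2, 7 with library size alone, 62 with no count filter and 0 in limma on log2(RPKM + 1), where 1493 genes had an unadjusted p under 0.05. The cause was not tested. The count was 17 with RLE factors, 14 with a mean of at least 1 CPM, 20 with the deeper kidney thinned to the shallower, 17 with the second filter and 17 without both 17-51 and 17-56. Leaving out each animal gave 4 to 77 calls. Of the 59 DESeq2 calls 13 were among the 17, and 10064 genes had an adjusted p there. The 6 calls without 17-51 became 10 with the second filter and 2 to 57 when a further animal was left out. In DESeq2 they became 42, of 3397 genes with an adjusted p, and only 1 of the 6 was among them. Within WT the 2 calls became 1 with a mean of at least 1 CPM, 1 in DESeq2 and 0 to 16 when an animal was left out. Within HIF2aM3 the 3 calls became 1 with a mean of at least 1 CPM and ran from 0 to 19 when an animal was left out. DESeq2 gave 3 calls within HIF2aM3 as well, of which only 1 was the same gene. The interaction called 0 genes in each setting run. Over 17 settings and 58 named genes, 808 of 967 values kept direction and side of the threshold, 128 lost the call, 28 gained one and 3 reversed. All 3 were Trp63, at 0.0267 when thinned, 0.0190 without WT 2 and 0.0205 without 17-53, in a range of -0.300 to 0.0205 when an animal was left out. Only the 17 called genes could lose a call, so all 128 losses were theirs. ENSMUSG00000073474 and mt-Tc kept the call in 15 of 17 settings, Apoc3 in 11, Slc5a10 and Mogat1 in 8, and Cyp51, Heg1 and Napsa in 6. The median of all genes moved to 0.03 with library size alone and to 0.02 with RPKM. The shallow library limits genes of few reads, such as Kcng1 and Serpina1e.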
